A study of Rattus norvegicus with 4 samples.

Results

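The genes followed here make up the MHC class I antigen presentation machinery, apart from the class I heavy chains themselves. They were chosen by gene name, and 9 of the 10 names (B2m, Tap1, Tap2, Tapbp, Psmb8, Psmb9, Psmb10, Erap1 and Calr) matched 1 of the 25810 genes listed in the counts. Nlrc5, which codes for an activator of class I gene transcription, was not matched by symbol and was not analysed here. RNA-Seq was carried out on 2 untreated clones of PC12, a rat pheochromocytoma line: wtPC12, the wild type clone with low levels of the repressor REST, and hrPC12 (also called PC12-27), a spontaneous clone with high levels. Each clone was represented by 2 libraries, with 20975027 and 21999191 reads on genes in wtPC12 and 27246502 and 21634943 in hrPC12. Since each REST level is that of 1 clone, an effect of REST and one of the clone's other properties cannot be told apart. Nothing in the labels says whether the libraries of a clone came from separate cultures, so the p values measure the spread between these libraries, which may be technical.

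Class I molecules display peptides of intracellular proteins to cytotoxic T lymphocytes. The peptides are cut by the proteasome, in which interferon gamma replaces the catalytic subunits Psmb5, Psmb6 and Psmb7 by Psmb8, Psmb9 and Psmb10 to form the immunoproteasome. The transporter made of Tap1 and Tap2 moves them into the endoplasmic reticulum (ER), where the aminopeptidase Erap1 trims them and where tapasin (Tapbp) and calreticulin (Calr) hold the heavy chain and B2m, its light chain, until a peptide is bound. Neurons and neuroendocrine cells are known for low levels of this pathway, and interferons raise it in most cell types.

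The promoters of these genes carry short interferon and NF-kappa B motifs, and the stretches with the matches are shown because 6 of the genes share one. RefSeq windows of the assembly GRCr8 (300 bases, 250 of them before the start of the gene) were found for 8 of the 10 genes, all but Nlrc5 and Erap1. The sequences read 5′ to 3′ on the strand of the gene, and capitals mark the core of the interferon-stimulated response element (GAAA, then any 2 bases, then GAAA) or a kappa B core (GGGACTTTC), on either strand.
B2m (chr3:129549123-129549222, plus strand): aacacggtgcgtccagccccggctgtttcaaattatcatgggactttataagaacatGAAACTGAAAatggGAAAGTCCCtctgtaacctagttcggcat
Tap1 (chr20:4668570-4668684, minus strand): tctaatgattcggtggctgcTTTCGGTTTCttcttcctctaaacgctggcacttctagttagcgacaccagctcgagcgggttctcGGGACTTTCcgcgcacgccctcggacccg
Tap2 (chr20:4652308-4652407, minus strand): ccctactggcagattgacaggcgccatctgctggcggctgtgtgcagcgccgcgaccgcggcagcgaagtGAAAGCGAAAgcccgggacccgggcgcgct
Tapbp (chr20:4967881-4967910, minus strand): tttgaggGAAAATGAAAGTGAAAggaaaca
Psmb8 (chr20:4657016-4657045, minus strand): gtgctgtggcTTTCGCTTTCacttccttgt
Psmb10 (chr19:50743293-50743385, minus strand): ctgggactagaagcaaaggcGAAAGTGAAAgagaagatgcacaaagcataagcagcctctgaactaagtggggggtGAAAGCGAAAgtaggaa
The interferon motif was found in the windows of 6 of the 8 genes, with 2 copies in Psmb10 and 2 overlapping copies in Tapbp, and in 3.92% of the 33469 rat windows of that length. The kappa B core was found in B2m and Tap1, and in 0.326% of all windows. CCAAT and GGGCGG, searched likewise on both strands, were each found in 4 of the 8, and in 37.5% and 33.1% of all windows. Psmb9, whose start lies next to that of Tap1 on the opposite strand, and Calr held neither of the first 2 motifs in their windows. The motifs were chosen after the windows had been read, and a match describes letters, not binding.

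The clones were checked first. Rest, which codes for the repressor that distinguishes them, had 43.0 and 132 normalized counts in the wtPC12 libraries and 964 and 915 in those of hrPC12, which follows the labels (log2 FC 3.42, standard error 0.57, edgeR adjusted p = 0.0115). Normalized counts are reads divided by the library size with edgeR's TMM factor, fold changes are hrPC12 over wtPC12, and a gene counts as changed where the quasi-likelihood test of edgeR gave it a Benjamini-Hochberg adjusted p under 0.01. Rest itself lay just over this threshold, and its wtPC12 libraries differed from each other (log2 ratio of replicate 1 to replicate 2 of −1.60). Chromaffin markers separated the clones: 6 of the 8 tested were lower in hrPC12 and none was higher. Over all tested genes 7.14% were lower past the threshold and 5.94% higher. Dbh had 243 and 216 normalized counts in wtPC12 and 5.08 and 6.07 in hrPC12. The leukocyte markers Ptprc and Cd48, of interest because white blood cells are rich in class I genes, were at or near 0 (0 to 0.847 normalized counts). The summed level of the 10 leukocyte markers was 1310 and 1222 in wtPC12 and 330.2 and 391 in hrPC12, of which Coro1a, the 1 marker of the 3 tested that was lower in hrPC12, made up most. Cd68, a lysosomal protein of macrophages, had 23.3 and 28.8 normalized counts in wtPC12 and 75.3 and 87.0 in hrPC12 (edgeR adjusted p = 0.0283), and the other 8 were at 0 to 8.14. Of the mesenchymal markers 5 of the 7 tested were higher in hrPC12, and the other two, Dcn (log2 FC −3.10, edgeR adjusted p = 0.0182) and Thy1 (log2 FC −0.99, edgeR adjusted p = 0.0137), were on the other side of 0. Their summed level, mostly Thy1 in wtPC12 and Col3a1 in hrPC12, was 18099 and 16315 in wtPC12 and 95253 and 100011 in hrPC12. The markers Ptprc, Cd48, Cd68, Dcn and Thy1 were named after their values were seen. The part of these differences in the results was not tested.

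Erap1 rose in hrPC12, and the other 8 genes of the machinery did not pass the threshold, with fitted values all on the side of hrPC12. All 9 genes were tested, with 773 to 52748 reads per library, and 1 was higher in hrPC12 and 0 lower past the threshold. Over all 13726 tested genes 13.1% passed the threshold, 5.94% as higher and 7.14% as lower. The unadjusted p was under 0.05 for 4 of the 9 (Tap1, Tapbp, Erap1 and Calr) and for 46.3% of all tested genes, so the share is near the background. DESeq2 called 2 of the 9 higher and 0 lower, where it called 13.7% of all tested genes higher. Each of the 9 fitted log2 FC was above 0, as was that of 52.3% of all tested genes, with a median of 0.44 where the median of all tested genes was 0.06. In 6 of the 9 both hrPC12 libraries lay above both wtPC12 libraries, which was so for 37.9% of all tested genes, and in either direction the clones did not overlap for 73.5%. With a log2 FC past 2 required in addition, 0 of the 9 and 10.3% of all tested genes were called.

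Erap1, the aminopeptidase that trims peptides in the ER, had 1387 and 1639 normalized counts in the wtPC12 libraries and 4765 and 5108 in hrPC12. The clones lay far apart and the libraries of each close together. The mean rose 3.26-fold, from 1513 ± 178 in wtPC12 to 4937 ± 242 in hrPC12 (SD, n = 2). On the log2 scale this was 1.71 with a standard error of 0.18, and edgeR gave an adjusted p of 0.00297. Without wtPC12 replicate 1 the edgeR adjusted p was 0.010, just over the threshold, at a log2 FC of 1.56. It was 0.0178 without wtPC12 replicate 2, a setting in which no gene at all was called. Tapbpl, a tapasin-related editor of the peptides bound by class I molecules and a partner that was not among the 10 genes, also rose, from 442 and 440 normalized counts in wtPC12 to 1309 and 1503 in hrPC12. This was a log2 FC of 1.67 (standard error 0.21, edgeR adjusted p = 0.00500). The call of Tapbpl was lost without wtPC12 replicate 1 or hrPC12 replicate 2 and, like every other call, without wtPC12 replicate 2. With each library left out in turn its log2 FC lay between 1.52 and 1.77.

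Calr, the lectin chaperone calreticulin, was higher in hrPC12, but its hrPC12 libraries differed from each other. It had 12068 and 11069 normalized counts in wtPC12 and 44654 and 25163 in hrPC12, so that the clones did not overlap. The SD was 706 around a mean of 11569 in wtPC12 and 13782 around a mean of 34909 in hrPC12 (n = 2). The log2 FC of 1.59 (standard error 0.32) had an edgeR adjusted p of 0.0203, over the threshold of 0.01. An adjusted p under 0.05, those under 0.01 included, was found for 32.4% of all tested genes. Between the hrPC12 libraries, replicate 1 over replicate 2, the log2 ratio was 0.83 for Calr, and 0.70 to 1.64, with a median of 0.86, for its 6 tested neighbours, 3 on each side in the RefSeq order. That median lay between −0.19 and 0.03 for the neighbours of the other 8 genes, and over all tested genes the median was −0.0046. The neighbour sets are not separate, since Tap1, Tap2, Psmb8 and Psmb9 are neighbours of one another, and Erap1 had only 3 tested neighbours. A ratio at or above that of Calr was found in 13.3% of all tested genes, so the excess was not particular to this stretch. Without hrPC12 replicate 1 the log2 FC of Calr was 1.12 (edgeR adjusted p = 0.0516), and without hrPC12 replicate 2 it was 1.90 (edgeR adjusted p = 0.00572). In hrPC12 replicate 1 55.9% of the counted reads lay outside genes, against 49.9% to 51.8% in the other libraries. Ambiguous reads made up 0.329% of it, against 0.105% to 0.146%. The cause of the higher values in hrPC12 replicate 1 was not tested.

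**Figure D1:**
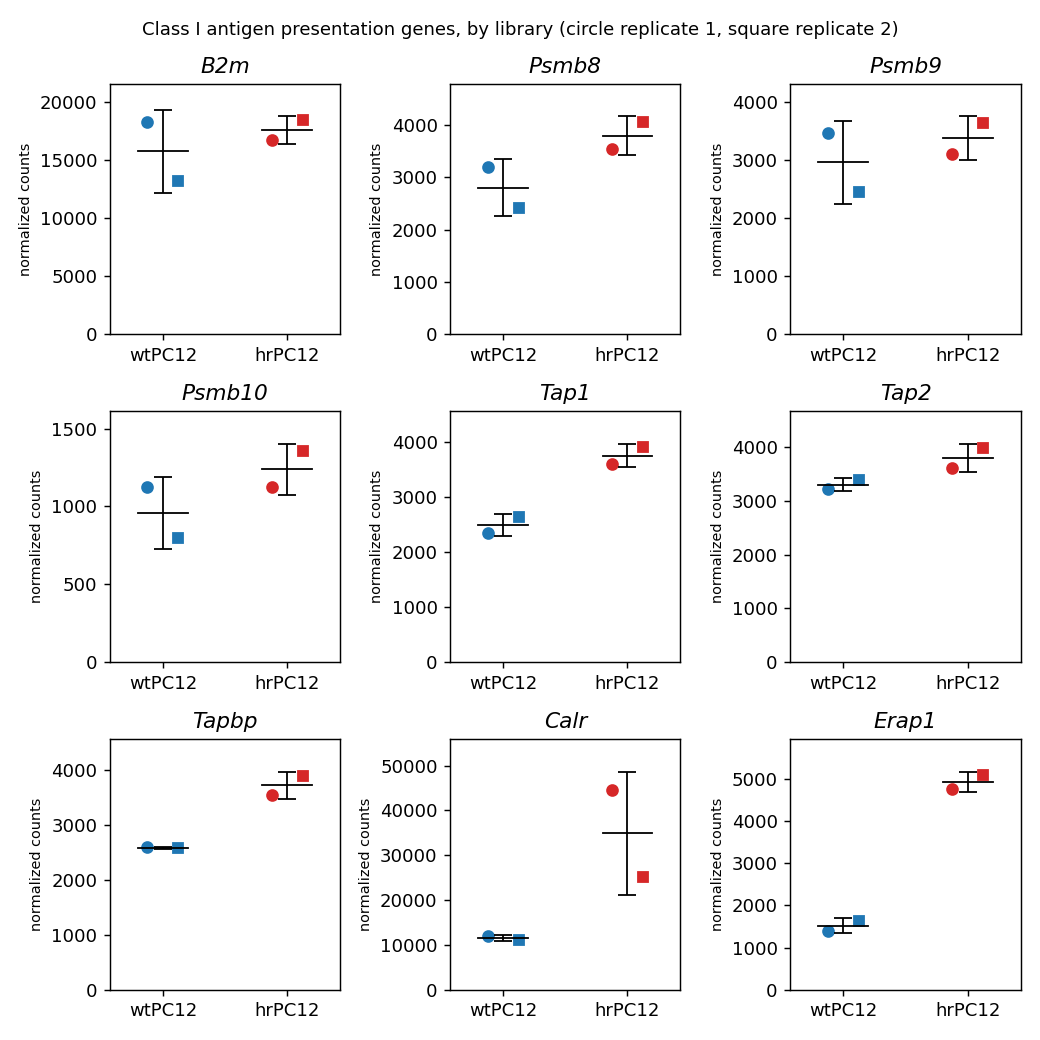
Normalized counts of the 9 genes in each library, with the mean and SD of each clone (n = 2) as black lines and every axis starting at 0. Erap1 separates the clones with little spread, Calr spreads from 25163 to 44654 in hrPC12, and B2m, Psmb9 and Psmb10 overlap between the clones.

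The light chain of every class I molecule did not separate the clones. B2m had 18247 and 13235 normalized counts in the wtPC12 libraries and 16694 and 18405 in hrPC12, so the hrPC12 values lay within or just above the wtPC12 range. The difference between the means (15741 ± 3544 in wtPC12 and 17550 ± 1210 in hrPC12, SD, n = 2) was smaller than the spread within wtPC12. The log2 FC was 0.16 (95% interval −0.42 to 0.74, edgeR adjusted p = 0.613), and −0.056 without wtPC12 replicate 2.

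The transporter genes and tapasin were slightly above their wtPC12 level in both hrPC12 libraries. Tap1, one half-transporter of TAP, had 2346 and 2640 normalized counts in wtPC12 and 3608 and 3906 in hrPC12, with a log2 FC of 0.59 (95% interval 0.16 to 1.02, edgeR adjusted p = 0.0501). Tap2, the other half-transporter, had 3221 and 3395 in wtPC12 and 3616 and 3988 in hrPC12, with a log2 FC of 0.20 (95% interval −0.21 to 0.61, edgeR adjusted p = 0.371). The difference of Tap2 was thus smaller, although that between Tap1 and Tap2 was not tested. Tapbp, which bridges TAP and the empty class I molecule, had 2596 and 2574 normalized counts in wtPC12 and 3553 and 3904 in hrPC12. Its log2 FC was 0.53 (95% interval 0.12 to 0.94, edgeR adjusted p = 0.0593). None of the 3 passed the threshold, and with other scaling, filters or tests on all 4 libraries the log2 FC of Tap1 lay between 0.55 and 0.65 and that of Tapbp between 0.49 and 0.60.

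The 3 catalytic subunits of the immunoproteasome were expressed in both clones without a difference past the threshold. Psmb8 had 3190 and 2415 normalized counts in wtPC12 and 3531 and 4051 in hrPC12 (log2 FC 0.44, 95% interval −0.10 to 0.97, edgeR adjusted p = 0.163). Psmb9 had 3458 and 2453 in wtPC12 and 3103 and 3638 in hrPC12, with overlap between the clones (log2 FC 0.19, 95% interval −0.40 to 0.78, edgeR adjusted p = 0.547). Without wtPC12 replicate 2 its log2 FC was −0.037. Psmb10 had 1124 and 796 in wtPC12 and 1123 and 1354 in hrPC12, again with overlap (log2 FC 0.37, 95% interval −0.29 to 1.02, edgeR adjusted p = 0.309). All 3 were higher in wtPC12 replicate 1 than in replicate 2, by 0.40 to 0.50 on the log2 scale, and so was B2m (0.46). The 13 tested genes of the constitutive 20S core shared this, each with a log2 ratio of wtPC12 replicate 1 to replicate 2 between 0.40 and 0.62, where the median of all tested genes was 0.04.

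Ratios of subunits within a library do not depend on how libraries are scaled. The log2 ratio of Psmb8 to Psmb5, the chymotrypsin-like subunit that it replaces, was −0.66 and −0.47 in the wtPC12 libraries and 0.45 and 0.40 in hrPC12. Both hrPC12 libraries were thus above both wtPC12 libraries, with a difference of the means of 0.99, or a 1.99-fold higher ratio, against SDs of 0.14 in wtPC12 and 0.03 in hrPC12 (n = 2). With each library left out in turn the difference was 0.89 to 1.09. The log2 ratio of Psmb10 to Psmb7, the trypsin-like subunit, was −3.27 and −3.24 in wtPC12 and −2.51 and −2.39 in hrPC12, a difference of 0.81 (0.74 to 0.87 with a library left out). The ratio of Psmb9 to Psmb6, the caspase-like subunit, was 0.02 and −0.04 in wtPC12 and −0.27 and 0.36 in hrPC12, so that the hrPC12 libraries lay on either side of those of wtPC12. Its difference of 0.06 was −0.26 without hrPC12 replicate 2 and 0.37 without hrPC12 replicate 1. With 2 libraries against 2 an exact permutation test cannot give a 2-sided p value under 0.333, so these ratios are descriptions. Their level also depends on the length of the genes, and only the change between the clones can be read. Differences of this kind were common: among single tested genes the clones did not overlap for 73.5%, and the median absolute log2 FC was 0.74. The same values over pairs of genes were not computed.

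**Figure D2:**
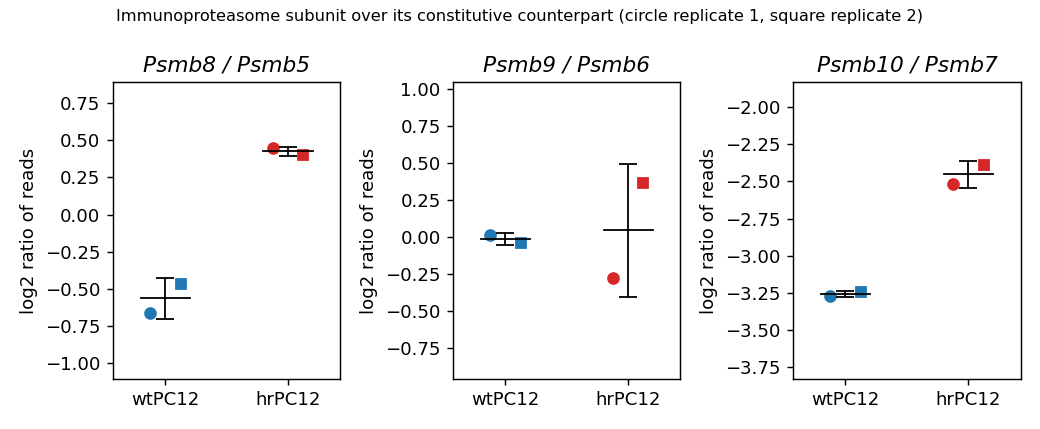
Log2 ratio of the reads of each immunoproteasome subunit to those of the constitutive subunit it replaces, per library, with the mean and SD of each clone (n = 2) as black lines and a span of 2 log2 units on every axis. The ratios of Psmb8 and Psmb10 are higher in both hrPC12 libraries, and that of Psmb9 straddles the wtPC12 values.

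The constitutive counterparts themselves did not pass the threshold. Psmb5 had 5051 and 3341 normalized counts in wtPC12 and 2590 and 3061 in hrPC12 (log2 FC −0.57, 95% interval −1.22 to 0.08), and Psmb7 had 10865 and 7546 in wtPC12 and 6418 and 7094 in hrPC12 (log2 FC −0.45, 95% interval −1.04 to 0.15). Psmb6 had 3422 and 2523 in wtPC12 and 3752 and 2831 in hrPC12 (log2 FC 0.15). edgeR called 0 of these 3 genes and 0 of the 10 other 20S core genes tested, where 0 and 1 had an unadjusted p under 0.05 and DESeq2 called 0 and 0. The 1 gene was Psmb2 (log2 FC 0.96), named after its values were seen. The median log2 FC of the 13 core genes was −0.26, on the other side of 0 from the median of the 9 genes of the machinery. The median without wtPC12 replicate 1, in which all 13 were higher than in replicate 2, was not computed. Summed, the 10 other core genes had 81746 and 56054 normalized counts in wtPC12 and 59369 and 61857 in hrPC12, between the wtPC12 libraries. The 3 catalytic subunits had 19338 and 13410 in wtPC12 and 12759 and 12986 in hrPC12, below both wtPC12 libraries. The difference between the lists was not tested. Over all tested genes edgeR called 13.1%, DESeq2 called 27.7%, and 46.3% had an unadjusted p under 0.05. Among activators and assembly factors of the proteasome edgeR and DESeq2 called 0 of 8, and 2 had an unadjusted p under 0.05. These were Psme2 (log2 FC 0.96, edgeR adjusted p = 0.0506), a subunit of the interferon-inducible PA28 cap, and Psme3 (−0.70), a nuclear cap subunit named after its values were seen. Psme2 had 2345 and 1735 normalized counts in wtPC12 and 4755 and 3198 in hrPC12. Its log2 ratio of hrPC12 replicate 1 to replicate 2 was 0.57. Psme1, the partner of Psme2, had 5779 and 4015 normalized counts in wtPC12 and 6231 and 7011 in hrPC12 (log2 FC 0.44).

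The ER list joined chaperones and folding enzymes that serve many proteins besides class I with 2 subunits of the Sec61 translocon. Of the 10 tested, 2 were higher in hrPC12 and 0 lower past the threshold (DESeq2 called 5 higher and 1 lower), with a median log2 FC of 0.85. Over all tested genes edgeR called 5.94% higher and 7.14% lower, and DESeq2 called 13.7% higher. The folding enzyme Pdia4, a protein disulfide isomerase, rose from 3813 and 4020 normalized counts in wtPC12 to 17039 and 18267 in hrPC12 (log2 FC 2.17, standard error 0.17, edgeR adjusted p = 0.00131). Sec61a1, the pore of the translocon and not a chaperone, rose from 9111 and 7506 to 30640 and 33081 (log2 FC 1.94, standard error 0.21, edgeR adjusted p = 0.00301, and 0.0120 without wtPC12 replicate 1). Pdia3, or ERp57, the isomerase that works with calreticulin and tapasin in the peptide loading complex, had 24634 and 20550 normalized counts in wtPC12 and 33366 and 35803 in hrPC12. Its log2 FC of 0.61 (95% interval 0.09 to 1.14, edgeR adjusted p = 0.0738) did not pass the threshold. Canx, the membrane-bound relative of calreticulin, was not matched by symbol and was not analysed here.

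**Figure D3:**
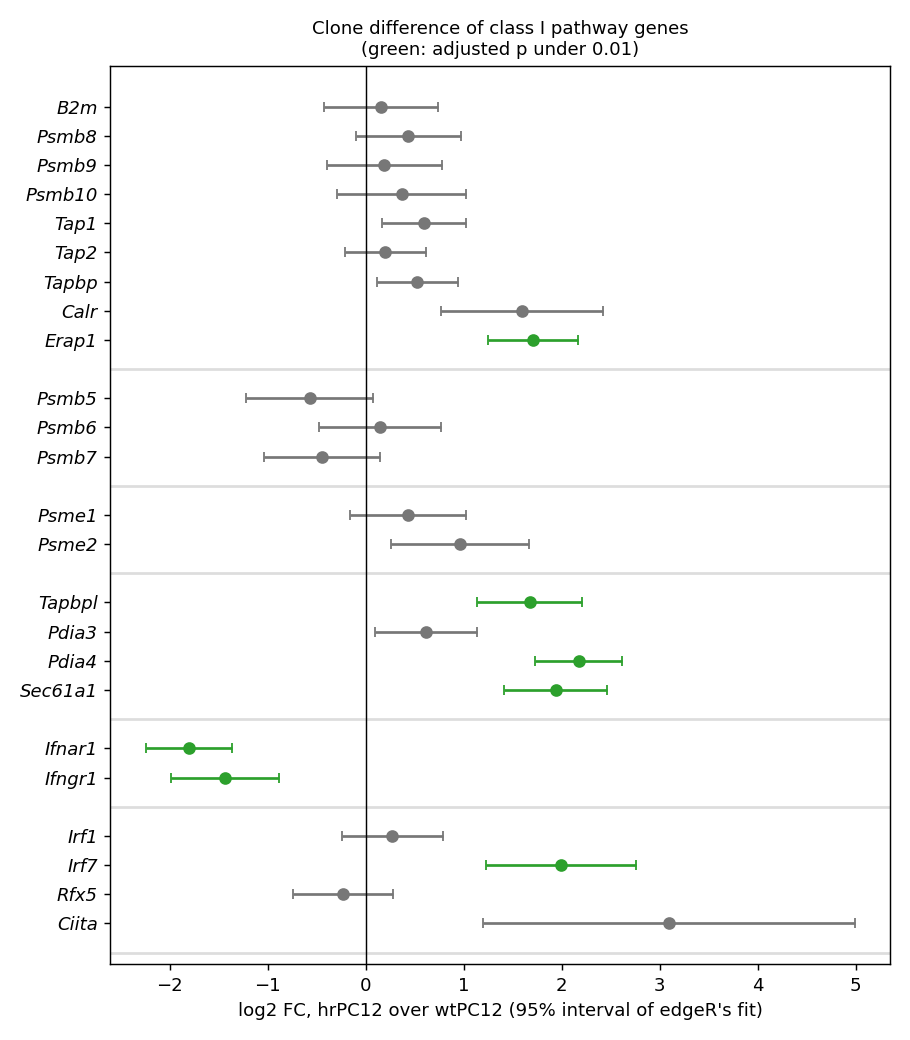
Log2 FC of hrPC12 over wtPC12 with the 95% interval of edgeR's fit, for the 9 genes of the machinery (top block) and for named partners, with genes of adjusted p under 0.01 in green. Erap1 (1.71) and Tapbpl (1.67) lie well above 0, Ifnar1 (−1.80) and Ifngr1 (−1.44) well below, and the intervals of B2m, Psmb8, Psmb9, Psmb10 and Tap2 span 0.

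A chain of the type I interferon receptor and a chain of the interferon gamma receptor fell in hrPC12. Ifnar1, a chain of the receptor for type I interferons, had 6036 and 5225 normalized counts in wtPC12 and 1620 and 1609 in hrPC12 (log2 FC −1.80, standard error 0.17, edgeR adjusted p = 0.00226). Ifngr1, the ligand-binding chain of the interferon gamma receptor, had 2614 and 1994 in wtPC12 and 842 and 861 in hrPC12 (log2 FC −1.44, standard error 0.22, edgeR adjusted p = 0.00888). The call of Ifngr1 was lost without wtPC12 replicate 1 or hrPC12 replicate 2 and, like every other call, without wtPC12 replicate 2. With each library left out in turn its log2 FC lay between −1.62 and −1.26. Of the 5 receptor chains and kinases tested 2 were thus lower and 0 higher past the threshold, with DESeq2 at 3 lower and 1 higher. Of all tested genes edgeR called 7.14% lower and 5.94% higher, and DESeq2 called 27.7% in either direction.

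Of 16 tested transcriptional regulators of class I genes, 1 was higher and 0 lower past the threshold (DESeq2 called 3 higher and 1 lower). Their median log2 FC was 0.29. The shares over all tested genes were 5.94% higher and 7.14% lower in edgeR and 13.7% higher in DESeq2, so the number higher is near the background. Irf7, a factor of the type I interferon response, rose from 270 and 176 normalized counts in wtPC12 to 870 and 904 in hrPC12 (log2 FC 1.99, standard error 0.30, edgeR adjusted p = 0.00869, and 0.0114 without hrPC12 replicate 2). Irf1, a factor known to bind the interferon motif, had 746 and 700 in wtPC12 and 843 and 906 in hrPC12 (log2 FC 0.27, 95% interval −0.24 to 0.79). Its binding to the promoters shown above was not measured. Rfx5, a subunit of the RFX complex that binds class I promoters, had 2641 and 3476 in wtPC12 and 2592 and 2621 in hrPC12 (log2 FC −0.23). Ciita, a relative of Nlrc5 that drives mainly class II genes, had 3 reads over both wtPC12 libraries and 32 over both of hrPC12, a ratio of 9.0 after scaling with a 95% interval from 2.82 to 45.9 for counting error only (edgeR adjusted p = 0.0325).

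No gene of a class I heavy chain, the partner of B2m, passed the threshold, and the genes with most reads were lower in hrPC12 in both libraries. Of 25 heavy chain genes (RT1, the rat MHC) 20 were tested, and edgeR called 0, while 9 had an unadjusted p under 0.05, near the 46.3% of all tested genes. DESeq2 called 3 of the 20, and 27.7% of all tested genes. The 15 genes with a mean of at least 100 normalized counts in either clone were divided, with 6 log2 FC above 0 and 9 below. RT1-A1, a classical heavy chain and the gene with most reads, had 24260 and 18266 normalized counts in wtPC12 and 10851 and 12787 in hrPC12 (log2 FC −0.85, 95% interval −1.43 to −0.27, edgeR adjusted p = 0.0429). RT1-CE5 had 13838 and 12018 in wtPC12 and 7644 and 9098 in hrPC12 (log2 FC −0.63, edgeR adjusted p = 0.0593). RT1-CE1 (349 and 267 in wtPC12, 676 and 804 in hrPC12, log2 FC 1.27, edgeR adjusted p = 0.0227), RT1-M3-1 (log2 FC 0.72), RT1-M6-2 (2.08), RT1-T24-1 (0.95), RT1-S3 (0.49) and RT1-N3 (0.42) lay on the other side of 0. The log2 FC were −0.93 for RT1-A2, −0.93 for RT1-CE3, −0.36 for RT1-T24-4, −0.17 for RT1-N1, −0.11 for RT1-CE10, −0.06 for RT1-CE4 and −0.02 for RT1-CE7. The genes called by DESeq2 were RT1-A1 as lower and RT1-CE1 and RT1-M6-2 as higher.

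Summed over the 25 genes, the heavy chains had 46609 and 37912 normalized counts in wtPC12 and 26664 and 31126 in hrPC12. RT1-A1 and RT1-CE5 made up 81.7% and 79.9% of the sum in wtPC12 and 69.4% and 70.3% in hrPC12, and without them the sum was 8512 and 7628 in wtPC12 and 8168 and 9241 in hrPC12. The ratio of the summed heavy chains to B2m, chosen after the values were seen, was 2.55 and 2.86 in wtPC12 and 1.60 and 1.69 in hrPC12. These values are uncertain, because class I genes are near-identical copies that reads with no unique position cannot be assigned to. Such reads were left out of the authors' gene counts and made up 5.85% to 9.13% of the counted reads of a library. Their part in the difference was not tested.

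**Figure D4:**
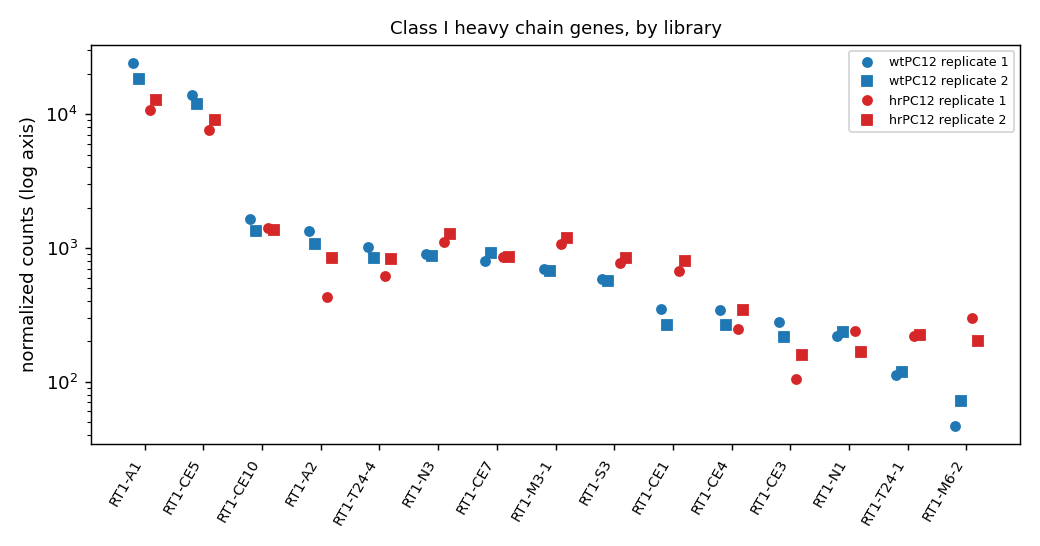
Normalized counts (log axis) of the 15 class I heavy chain genes with a mean of at least 100 in either clone, per library, ordered by their wtPC12 mean. RT1-A1 and RT1-CE5 lead in every library and lie lower in hrPC12, whereas RT1-CE1, RT1-M3-1, RT1-S3, RT1-N3, RT1-T24-1 and RT1-M6-2 lie higher.

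Other genes of the class I fold, none of them an RT1 heavy chain gene, were higher in hrPC12 past the threshold in 3 of the 5 tested. In this list 0 were lower, and the median log2 FC was 3.22. Over all tested genes 5.94% were higher past the threshold and 7.14% lower. Fcgrt, the neonatal Fc receptor, which also pairs with B2m, rose from 142 and 78.3 normalized counts in wtPC12 to 1410 and 1522 in hrPC12 (log2 FC 3.74, standard error 0.36, edgeR adjusted p = 0.00237). Cd1d1, a B2m-dependent molecule that presents lipids, had 3 and 2 reads in the wtPC12 libraries and 236 and 247 in those of hrPC12. The scaled ratio was 81.5, with a 95% interval from 34.7 to 252 for counting error only (edgeR adjusted p = 0.00115). Procr, the endothelial protein C receptor, which has the class I fold without B2m, rose from 15.1 and 16.5 normalized counts to 143 and 155 (log2 FC 3.22, standard error 0.36, edgeR adjusted p = 0.00346, and 0.0109 without wtPC12 replicate 1).

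**Figure D5:**
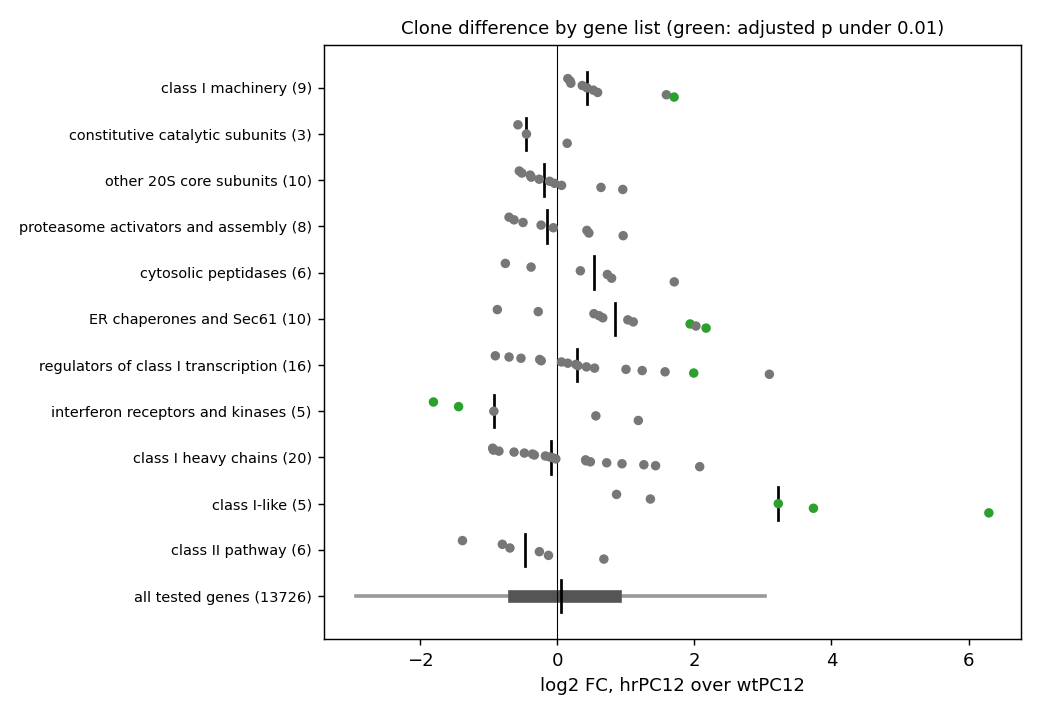
Log2 FC of each tested gene of the machinery and of the related lists, with the number tested in brackets, genes of adjusted p under 0.01 in green and the median of each list as a black line. The bottom row gives all 13726 tested genes as the 5th to 95th percentile (thin line) and the quartiles (thick line), and the median of the machinery is 0.44 against 0.06 for all genes.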

How the data were processed

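RNA was extracted from 2 PC12 clones, and 2 libraries of each were sequenced as paired-end reads. Per the labels and the methods of the study, the authors used TopHat2 2.0.4 to align them to the rat build rn4, counted reads per gene with HTSeq 0.5.3 and deposited raw counts, without normalization or a filter. The kit does not mark strand, so reads of overlapping antisense genes cannot be told apart, and the HTSeq settings and the annotation are not given in the sources used here. The deposited table of the authors' own DESeq 1.9.12 comparison (pooled means, fold changes and p values) was not used. The 5 closing totals of each file that name no gene stayed out of library sizes and tests. Shares of counted reads are of the gene counts and these 5 totals of a library together. Reads outside genes made up 49.9% to 55.9% of this sum, reads without a unique position 5.85% to 9.13%, and ambiguous reads 0.105% to 0.329%. Whether a read with several positions entered the sum once or more is not known.

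Counts were analysed in R 4.3.3 with edgeR 4.0.16 (TMM factors, and the quasi-likelihood functions glmQLFit and glmQLFTest in their legacy form, over all 4 libraries) and Benjamini-Hochberg adjustment over the 13726 genes that had reads in both clones and averaged 5 or more normalized counts. Standard errors are the log2 FC over the root of the F statistic. DESeq2 1.42.0 replaced DESeq as an alternative. The others were library totals alone, RLE factors, filterByExpr, no filter but 1 read, the legacy option off, a prior count of 2, other thresholds, and each library left out in turn. Genes were matched by symbol. The RefSeq gene order of GRCr8, which is not the build of the counts, served only to find neighbours, and the comparison with neighbours was added after seeing the data.

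The 10 genes and the lists (3 constitutive catalytic subunits, other 20S core subunits, activators and assembly factors, cytosolic peptidases, ER partners, ER chaperones with Sec61 subunits, regulators, interferon receptors and kinases, class I heavy chains, class I-like genes, the class II pathway, and 3 marker lists) came from general knowledge, with earlier results of these data known. Genes named are the 10, Rest, genes of the lists past the threshold, heavy chains with at least 100 normalized counts in either clone, and Psmb5, Psmb6, Psmb7, Psme1, Psme2, Canx, Pdia3, Tapbpl, Irf1, Rfx5, Ciita, Ifngr1 and Ifnar1. Some genes of the lists are not reported here. Intervals for summed reads are exact (Clopper-Pearson) and, in the absence of molecular identifiers, cover counting error only.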

Additional observations from a re-analysis of the deposited data

How the results depend on the processing

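The number of the 9 genes higher in hrPC12 past the threshold was 1, and it was 1 with filterByExpr, the legacy option off or a prior count of 2. It was 2 with library totals alone, RLE factors, every gene with a read, DESeq2 or an adjusted p under 0.05, where Calr joined Erap1, and 0 where a log2 FC past 2 was required in addition. With each library left out in turn it was 0 to 2: 0 without wtPC12 replicate 1 or wtPC12 replicate 2, 1 without hrPC12 replicate 1 and 2 without hrPC12 replicate 2. With a library left out the log2 FC was −0.056 to 0.38 for B2m and −0.037 to 0.43 for Psmb9, below 0 without wtPC12 replicate 2, and the cause was not tested. It was 0.14 to 0.61 for Psmb10, 0.25 to 0.62 for Psmb8 and 0.08 to 0.27 for Tap2, lowest without wtPC12 replicate 2 and highest without wtPC12 replicate 1 for Psmb8 and Psmb10, and for Tap2 0.08 without hrPC12 replicate 2 and 0.13 without wtPC12 replicate 1. Over all tested genes 816 were higher and 980 lower. The number higher was 1268 with library totals alone and 1594 with every gene with a read. DESeq2 gave 1881 higher and 1924 lower, and an adjusted p under 0.05 gave 2215 higher and 2234 lower. With a library left out 0 to 1157 were higher and 0 to 1035 lower, with 0 in both directions without wtPC12 replicate 2, so that the loss of a call there says nothing about the gene. The fits without a library assume that the lone library of a clone varies like the others.

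No paired analysis was possible because the titles of the libraries share only 1 replicate mark between the clones, the letter b.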

Other observations

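The class II pathway, which displays peptides of ingested proteins on professional antigen presenting cells, was at a low level in both clones. Of its 10 genes in the counts 6 were tested, and edgeR and DESeq2 called 0, with an unadjusted p under 0.05 for 2, where 46.3% of all tested genes had one. The genes not tested had few reads. RT1-Db1 had 0 and 0 in wtPC12 and 11 and 8 in hrPC12, and RT1-Da had 1 and 0 against 4 and 5. RT1-Bb had 0 and 0 against 2 and 0, and RT1-Db2 had no read. Cd74, the invariant chain, had 8.14 and 8.24 normalized counts in wtPC12 and 3.39 and 6.07 in hrPC12. The peptide loading subunits RT1-DMa and RT1-DMb stood apart from the rest, RT1-DMa with 1296 and 880 normalized counts in wtPC12 and 1648 and 1842 in hrPC12 (log2 FC 0.68, edgeR adjusted p = 0.0969). RT1-DMb had 636 and 545 in wtPC12 and 439 and 549 in hrPC12. The genes named here were chosen after their values were seen.

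Cytosolic peptidases, which trim or destroy peptides before they reach TAP, did not pass the threshold in edgeR (0 of 6 tested), while 4 had an unadjusted p under 0.05 and DESeq2 called 3. Over all tested genes these shares were 46.3% and 27.7%. Lap3, the leucine aminopeptidase, had 1304 and 1120 normalized counts in wtPC12 and 4997 and 2921 in hrPC12 (log2 FC 1.71, edgeR adjusted p = 0.0143). Tpp2, tripeptidyl peptidase II, had 2427 and 2775 in wtPC12 and 4411 and 4613 in hrPC12 (log2 FC 0.79, edgeR adjusted p = 0.0230). Thop1, an endopeptidase that destroys class I ligands, had 3971 and 3579 in wtPC12 and 2097 and 2381 in hrPC12 (log2 FC −0.75, edgeR adjusted p = 0.0286). These 3 were those called by DESeq2, and they too were named after their values were seen.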
